A study of Drosophila melanogaster with 4 samples.

Results

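Glutathione transferase (Gst) and UDP-glycosyltransferase (Ugt) genes were described in Drosophila melanogaster larvae of 2 genotypes, taken whole in the third instar at the wandering stage. The members were all genes of the deposited table whose symbol starts with Gst and a capital letter or with Ugt and a digit, which gave 42 of 12116 genes and 63 of 21529 transcripts. They were 10 GstD, 13 GstE, 10 other Gst and 9 Ugt genes. The mutant larvae (hsromega66) were homozygous for the allele hsromega[66] of the long noncoding RNA gene Hsromega, and the control larvae were of the Oregon R+ stock. Each genotype had 2 total RNA libraries, each from 5 larvae, with no treatment stated in the labels. The sources used here give neither the sex of the larvae nor the genetic background of the stocks, so the allele and any other difference between the stocks cannot be told apart.

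Glutathione transferases join the tripeptide glutathione to electrophilic compounds, which makes them soluble and ready for export, and several also reduce lipid peroxides. The delta (GstD) and epsilon (GstE) classes are large in insects, lie in tandem gene clusters and include enzymes of insecticide metabolism and oxidative stress. UDP-glycosyltransferases are membrane proteins of the endoplasmic reticulum that add a sugar, mostly glucose in insects, to small lipophilic molecules. In larvae both families are known mainly from midgut, fat body and Malpighian tubules, and in flies the transcription factor CncC, held back by Keap1, drives many of their genes.

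The values are the authors' FPKM (fragment counts scaled to transcript length and to library size), 1 value per transcript and genotype pooled over both libraries, summed here over the transcripts of a gene. They carry no spread between libraries, so no SD can be given, and the sequencing depth behind them is unknown. A gene is said to rise or fall where the authors' deposited table gives at least 1 of its transcripts a Cuffdiff q of at most 0.05, adjusted over all 21529 transcripts. The labels do not say if the 2 libraries of a genotype are independent collections of larvae, so the deposited p-values may measure technical spread alone. Log2 ratios are log2(FPKM + 1) in hsromega66 minus that in control, a scale that understates changes of low genes. As a check of the labels, Hsromega itself (3R, 21296127 to 21317836, dm6) stood at 0.290 FPKM in hsromega66 and 232 FPKM in control larvae, with a lowest deposited q of 0.998, so it differed in level without passing the authors' test.

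Of the 42 genes, 4 fell and 2 rose in hsromega66 larvae. The falls were in GstD10, GstD3, GstE3 and GstE8, and the rises in GstT4 and Ugt86Dj. These are 14.3% of the members, against 2.31% called among all 12116 genes of the comparison, where 0.908% fell and 1.4% rose. Among members with at least 5 FPKM in 1 genotype, 6 of 30 were called, against 250 of all 8212 genes that abundant (3.04%). Counted by transcript, 9.52% of the members' 63 were called, against 1.31% of all transcripts. With the unadjusted p-values of the authors' deposited table and a threshold of 0.05, 23.8% of the members' transcripts passed, against 4.5% of all. Of these, 10 were lower in hsromega66 larvae (15.9% of the 63, against 1.83% of all) and 5 were higher (7.94%, against 2.67% of all). The lower ones belonged to GstD (6), GstE (3) and the other Gst genes (1), the higher ones to Ugt (3) and the other Gst genes (2). All 42 genes had at least 1 FPKM in 1 genotype. Their median log2 ratio was -0.06, beside -0.01 over the 11607 genes with at least 1 FPKM, and the medians of the 4 classes lay between -1.01 for GstD and 0.05 for Ugt.

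**Figure D1:**
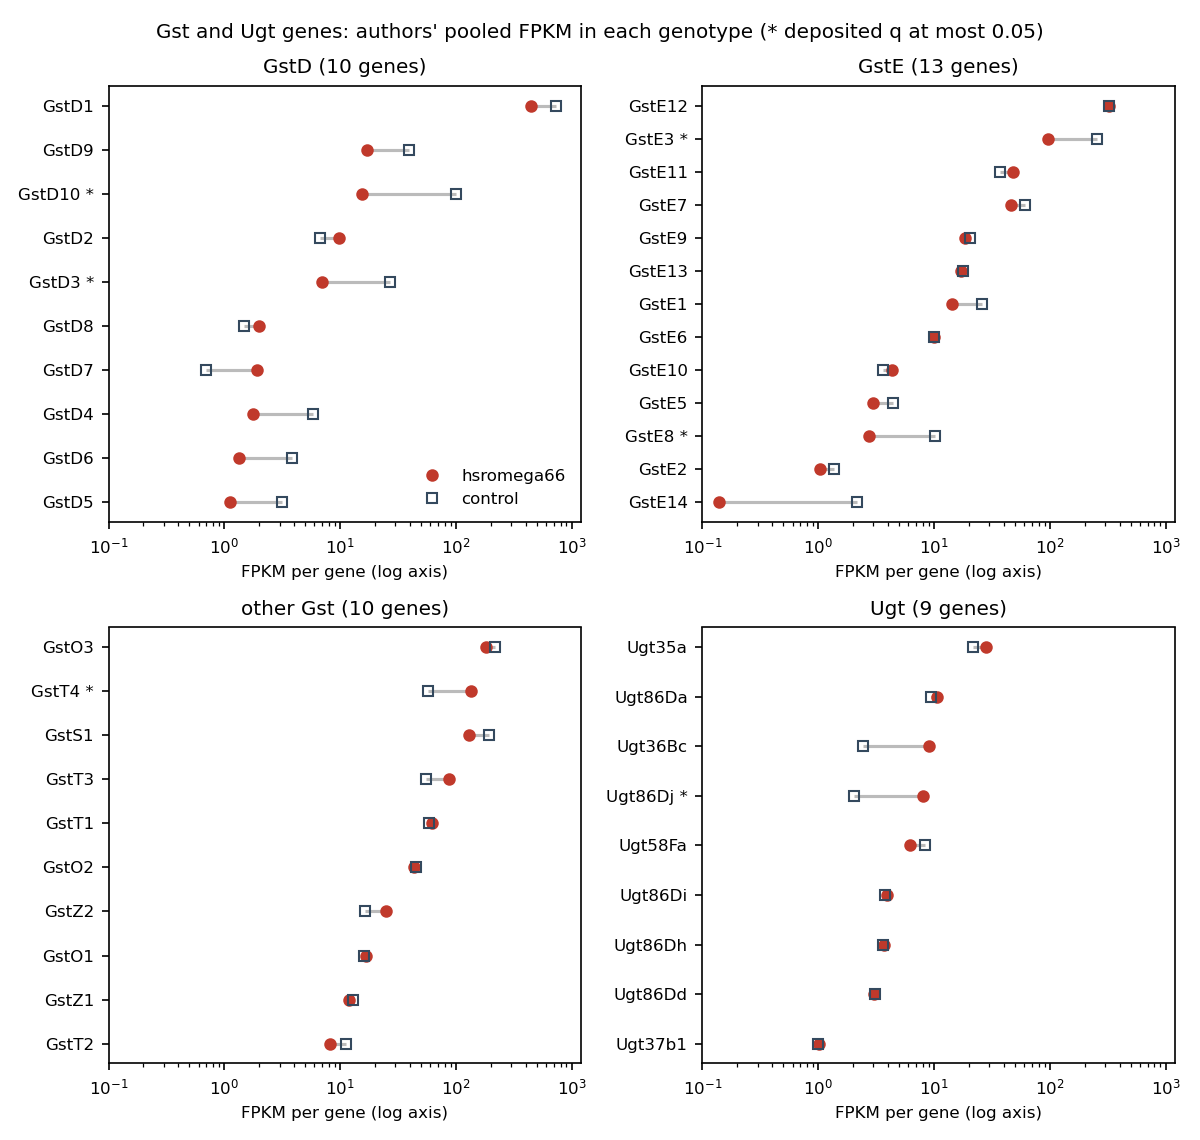
FPKM per gene on a log axis for the 42 genes in 4 panels by class, with hsromega66 as filled circles, control as open squares and a line joining the pair. A star marks genes with a deposited q of at most 0.05. The longest lines among starred genes are those of GstD10 (15.6 FPKM in hsromega66, 100.3 FPKM in control) and Ugt86Dj (8.01 FPKM in hsromega66, 2.06 FPKM in control), and many GstE and Ugt pairs lie on top of each other.

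The GstD class held 2 of the 4 falls and 5 of the 8 genes of the whole set with a log2 ratio at or below -1. GstD10 (3R, 12364776 to 12365735, minus strand) fell to 15.6 FPKM in hsromega66 larvae, against 100.3 FPKM in control, a ratio of control to mutant of 6.43. Its log2 ratio of -2.61 was number 46 from the lowest of 11607 genes. GstD10 has 2 listed transcripts, the main one at 14.5 FPKM in hsromega66 and 92.9 FPKM in control with a deposited q of 0.00546 and the other at 1.10 FPKM in hsromega66 and 7.38 FPKM in control with a deposited q of 0.998. The main transcript held 93.0% of the gene's FPKM in hsromega66 and 92.6% in control larvae, so the proportions of the 2 transcripts were close in both genotypes.

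GstD3 (3R, 12373068 to 12373813, plus strand), whose protein lacks the N-terminal segment of the other delta enzymes, fell to 6.99 FPKM in hsromega66 larvae, against 27.1 FPKM in control, a ratio of control to mutant of 3.88, with a deposited q of 0.00546. The 3 genes that follow it on the same strand were also listed lower in hsromega66 larvae, without passing the threshold. GstD4 stood at 1.76 FPKM in hsromega66 and 5.89 FPKM in control larvae, with a deposited q of 0.242. GstD5 stood at 1.12 FPKM in hsromega66 and 3.13 FPKM in control, with a deposited q of 0.648, and GstD6 at 1.33 FPKM in hsromega66 and 3.84 FPKM in control, with a deposited q of 0.718. These tandem genes resemble one another in sequence, so the division of reads among them is uncertain.

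GstD1 (3R, 12367817 to 12369268, minus strand), the abundant and widely expressed delta enzyme that responds to oxidants and can break down DDT, was listed at 443 FPKM in hsromega66 and 734 FPKM in control larvae. Its main transcript had a deposited p of 0.0149 and a q of 0.529. It alone made up 88.5% of the summed GstD level in hsromega66 and 79.6% in control larvae. GstD9, between GstD10 and GstD1, was listed at 17.2 FPKM in hsromega66 and 38.9 FPKM in control, with a lowest deposited p of 0.0556. Its more abundant transcript stood at 10.8 FPKM in hsromega66 and 30.9 FPKM in control and the other at 6.38 FPKM in hsromega66 and 8.03 FPKM in control, so the first held 62.8% of the gene in hsromega66 and 79.4% in control larvae.

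The remaining GstD genes were listed higher in hsromega66 larvae, none past the threshold. GstD2 stood at 9.74 FPKM in hsromega66 and 6.76 FPKM in control larvae, GstD7 at 1.92 FPKM in hsromega66 and 0.690 FPKM in control and GstD8 at 1.98 FPKM in hsromega66 and 1.49 FPKM in control, with deposited p-values between 0.0688 for GstD7 and 0.530 for GstD8. In all, 7 of the 10 GstD genes had a log2 ratio below 0, where 51.7% of all 11607 genes lay. Of the 7, 5 were at or below -1, where 313 of the 11607 genes (2.7%) lay. The class median was -1.01. Summed over the class, GstD genes gave 500.3 FPKM in hsromega66 and 923 FPKM in control larvae, a ratio of 0.542, and without GstD1 the sums were 57.6 FPKM in hsromega66 and 188 FPKM in control, a ratio of 0.306.

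**Figure D2:**
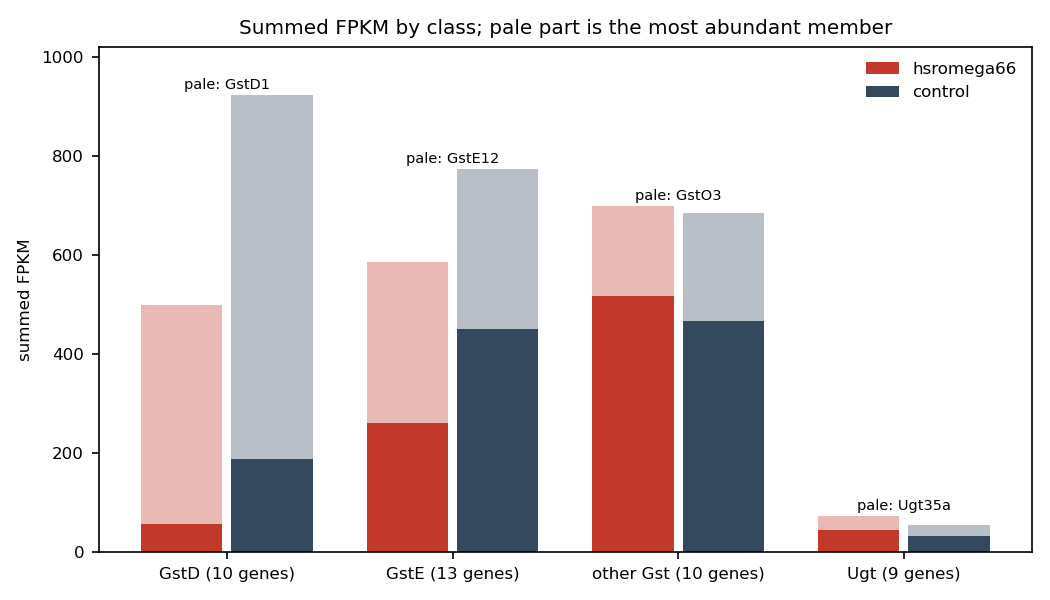
Bars give the summed FPKM of each class in hsromega66 (red, left) and control (blue, right), with the most abundant member as the pale part of the bar. GstD is lower in hsromega66 with GstD1 (500.3 FPKM in hsromega66, 923 FPKM in control) and without it (57.6 FPKM in hsromega66, 188 FPKM in control), GstE stands at 586 FPKM in hsromega66 and 773 FPKM in control, and the other Gst genes at 699 FPKM in hsromega66 and 686 FPKM in control.

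Among the 13 GstE genes, 2 fell and none rose. GstE3 (2R, 18400713 to 18401467) fell to 96.3 FPKM in hsromega66 larvae, against 256 FPKM in control, a ratio of control to mutant of 2.66, with a deposited q of 0.00546. It was the second most abundant GstE gene after GstE12. GstE8 (2R, 18407834 to 18408955) fell to 2.77 FPKM in hsromega66 larvae, against 10.3 FPKM in control, a ratio of control to mutant of 3.70, with a deposited q of 0.0177. Its neighbours on the same strand did not pass. GstE7 was listed at 46.2 FPKM in hsromega66 and 60.6 FPKM in control larvae, with a deposited p of 0.209, and GstE9 at 18.4 FPKM in hsromega66 and 20.6 FPKM in control, with a deposited p of 0.932.

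GstE12 (2R, 24766718 to 24768172), outside the cluster, was the most abundant GstE gene and was listed at 324 FPKM in hsromega66 and 323 FPKM in control larvae. GstE1, known to respond to oxidative stress, stood at 14.4 FPKM in hsromega66 and 25.8 FPKM in control with a deposited p of 0.0440 and a q of 0.998. GstE14 (noppera-bo), needed in the prothoracic gland for ecdysteroid synthesis, stood at 0.140 FPKM in hsromega66 and 2.14 FPKM in control larvae, with a deposited p of 0.0890 and a q of 0.998. GstE10 (4.33 FPKM in hsromega66, 3.62 FPKM in control) and GstE11 (48.1 FPKM in hsromega66, 36.8 FPKM in control) had the highest ratios of the class, and neither passed the threshold. GstE2, GstE5, GstE6 and GstE13 had log2 ratios between -0.43 and 0.01.

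In all, 9 of the 13 GstE genes had a ratio below 0, where 51.7% of all 11607 genes lay, and the class median was -0.22. The summed level was 586 FPKM in hsromega66 and 773 FPKM in control larvae, a ratio of 0.757, or 0.582 without GstE12. GstE1 and GstE10 overlap by 127 bp on opposite strands and GstE9 overlaps imd by 40 bp, while GstE12, GstE13 and GstO2 overlap another gene by 33, 6 and 61 bp. The sources used here do not say whether counting used the strand, so the assignment of reads within these overlaps is uncertain. The 6 genes that rose or fell overlap no other listed gene. However, GstD10, GstD3, GstE3, GstE8 and Ugt86Dj lie in clusters of related genes, where reads may be split between similar genes.

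Position within the clusters was set beside these values. The 10 GstD genes lie within 16.0 kb of 3R and read, along the chromosome, GstD10, GstD9 and GstD1 on the minus strand and GstD2 to GstD8 on the plus strand. The genes with a ratio below 0 form a run at one end (GstD10, GstD9, GstD1) and another in the middle (GstD3 to GstD6), while GstD2 between them and GstD7 and GstD8 at the far end had ratios above 0. Within 20 kb of the cluster 7 further genes were listed and none passed the threshold, and the 6 with at least 1 FPKM had log2 ratios between -0.33 (CG10038) and -0.04 (CG4115). No gene beside the cluster thus reached the ratios of GstD10 or GstD3.

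The surroundings of the GstE cluster (9 listed genes within 13.2 kb of 2R) were different. Within 20 kb of it 15 further genes were listed, of which 6 fell and none rose by the deposited q. Over all 12116 genes, 0.908% fell and 1.4% rose. These 6 lie on the GstE10 side of the cluster among the immune-induced peptide genes, and their log2 ratios ran from -5.19 for IM23 (11.9 FPKM in hsromega66, 469 FPKM in control) to -2.87 for IM1 (105 FPKM in hsromega66, 778 FPKM in control). CG43202, CG18107, CG15065 and CG15068 on that side were also listed lower in hsromega66 without passing. Of these, CG18107 stood at 3.45 FPKM in hsromega66 and 57.1 FPKM in control, with a deposited q of 0.998. Idgf5, between those peptide genes and GstE10, stood at 25.0 FPKM in hsromega66 and 17.7 FPKM in control, and GstE10 itself had a ratio above 0, so the fallen peptide genes and the fallen GstE genes did not form 1 unbroken run. On the far side of the cluster imd, the adaptor of the Imd immune pathway, stood at 21.1 FPKM in hsromega66 and 20.3 FPKM in control.

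**Figure D3:**
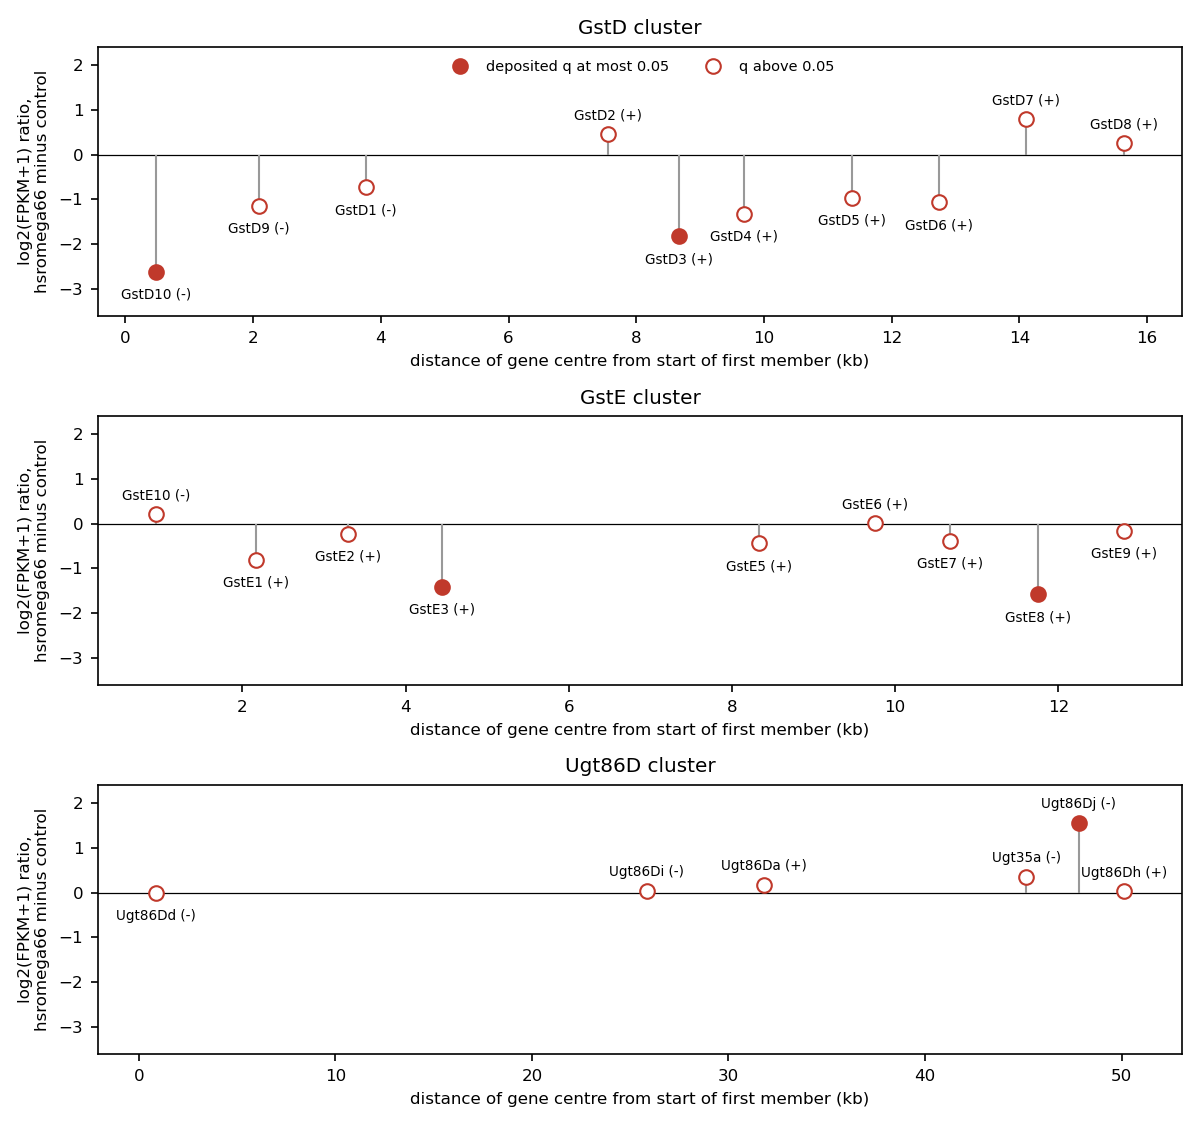
Log2(FPKM + 1) ratio of each gene (hsromega66 minus control) against the distance of its centre from the start of the first listed gene of the cluster, in kb, with the strand in brackets. Filled points have a deposited q of at most 0.05. In the GstD panel GstD10 (-2.61) and GstD3 (-1.82) are filled, in the GstE panel GstE3 (-1.40) and GstE8 (-1.58), and in the Ugt86D panel only Ugt86Dj (1.56).

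The other Gst genes, of the theta, sigma, omega and zeta classes, gave 1 rise. GstT4 (X, 13404749 to 13409323), a theta-class gene, rose to 135 FPKM in hsromega66 larvae, against 57.6 FPKM in control, a ratio of 2.34, with a deposited q of 0.00983. GstT3 (X, 20467455 to 20469796), of the same class, was listed at 87.3 FPKM in hsromega66 and 55.3 FPKM in control larvae without passing the threshold, at a lowest deposited q of 0.370. The main transcript of GstT3 stood at 67.4 FPKM in hsromega66 and 32.4 FPKM in control larvae, while the second stood at 18.2 FPKM in hsromega66 and 22.3 FPKM in control. The main transcript therefore held 77.2% of the gene in hsromega66 and 58.6% in control larvae. The remaining theta genes did not pass, GstT1 at 62.5 FPKM in hsromega66 and 58.2 FPKM in control and GstT2 at 8.12 FPKM in hsromega66 and 11.2 FPKM in control, and GstT2 overlaps CG12926 by 223 bp on the opposite strand.

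GstS1 (2R, 17093246 to 17099501), the sigma-class enzyme that is abundant in muscle and acts on lipid peroxidation products, was listed at 129 FPKM in hsromega66 and 193 FPKM in control larvae. Its most abundant transcript had a deposited p of 0.0469 and a q of 0.998. All 4 of its listed transcripts carry the class code j, which Cufflinks gives to assembled forms that share a junction with the annotation but differ from it. In the same larvae the 5 muscle markers Mhc, Act57B, Mlc2, up and wupA were all listed lower in hsromega66, with a median log2 ratio of -0.54 beside -0.58 for GstS1, and summed to 4545 FPKM in hsromega66 and 6609 FPKM in control larvae. None of the 5 passed the threshold, and the part of muscle RNA in the GstS1 value was not tested. In whole-larva RNA fewer cells of a type and less RNA per cell cannot be told apart.

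GstO3, of the omega class, was the most abundant of this group, at 181 FPKM in hsromega66 and 219 FPKM in control larvae, with a deposited p of 0.331. GstO2 (43.4 FPKM in hsromega66, 45.2 FPKM in control) and GstO1 (16.7 FPKM in hsromega66, 16.2 FPKM in control) lie beside it on 3L and differed less. GstZ1 and GstZ2 belong to the zeta class, whose enzymes act in tyrosine breakdown, and are neighbours on 3R. GstZ1 was listed at 11.9 FPKM in hsromega66 and 12.9 FPKM in control and GstZ2 at 24.7 FPKM in hsromega66 and 16.4 FPKM in control, with a lowest deposited p of 0.0716 for GstZ2. The median of this group was -0.01 and its summed level was 699 FPKM in hsromega66 and 686 FPKM in control larvae.

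The 9 Ugt genes were low beside the transferases, summing to 73.9 FPKM in hsromega66 and 55.5 FPKM in control larvae, where the 33 Gst genes summed to 1785 FPKM in hsromega66 and 2382 FPKM in control. Ugt86Dj (3R, 11173441 to 11175408) rose to 8.01 FPKM in hsromega66 larvae, against 2.06 FPKM in control, a ratio of 3.90 with a deposited q of 0.00546. Ugt35a, directly beside it, was the most abundant of the 9 at 28.2 FPKM in hsromega66 and 21.9 FPKM in control, and did not pass, with a deposited p of 0.228. The other listed genes of that cluster were Ugt86Da (10.7 FPKM in hsromega66, 9.34 FPKM in control), Ugt86Di (3.95 FPKM in hsromega66, 3.79 FPKM in control), Ugt86Dh (3.68 FPKM in hsromega66, 3.59 FPKM in control) and Ugt86Dd (3.06 FPKM in hsromega66, 3.08 FPKM in control), the last known for its part in larval nicotine resistance. None of these 4 had a deposited p of at most 0.05. Inside this cluster of 51.3 kb or within 20 kb of it, 5 further genes were listed and none passed. The highest ratio was that of CG4757 (51.7 FPKM in hsromega66, 23.1 FPKM in control, deposited q of 0.142). CG4757 lies inside the cluster, between Ugt86Da and Ugt35a.

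Ugt36Bc (2L, 16799025 to 16801584) had the same log2 ratio as Ugt86Dj, 1.56, but did not pass. It was listed at 9.11 FPKM in hsromega66 and 2.44 FPKM in control larvae, with deposited p-values of 0.0158 and 0.0290 and q-values of 0.542 and 0.807 for its 2 transcripts. The less abundant transcript held 43.7% of the gene in hsromega66 and 21.8% in control larvae. Ugt58Fa had the lowest log2 ratio of the class, -0.38, at 6.18 FPKM in hsromega66 and 8.37 FPKM in control, and Ugt37b1 stood at 1.02 FPKM in hsromega66 and 0.999 FPKM in control. The class median was 0.05, and 7 of the 9 genes had a ratio above 0, where 48.3% of all 11607 genes lay. Of the 9 genes, 4 had a log2 ratio within 0.1 of 0.

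Further UDP-glycosyltransferase genes were in the table under other symbols. By gene identifier, 15 listed genes carry a Ugt name in the Ensembl annotation and another symbol in the table, mostly a CG number. Among these 1 rose and none fell, where 1.4% of all 12116 genes rose and 0.908% fell. CG5999 (Ugt37A3 in the annotation; 3R, 12741958 to 12743680) rose to 98.6 FPKM in hsromega66 larvae, against 44.5 FPKM in control, with a deposited q of 0.0177. In hsromega66 larvae its level was above the 73.9 FPKM of the 9 genes under Ugt symbols together. CG5724 (Ugt37A2), directly beside CG5999 on 3R, stood at 5.31 FPKM in hsromega66 and 3.27 FPKM in control and did not pass. Reads may be split between CG5999 and this related gene. The most abundant of the 15 was CG10178 (Ugt301D1), at 113 FPKM in hsromega66 and 130 FPKM in control, which did not pass. The largest ratio in the other direction was that of CG6475 (Ugt49B2), which lies 79945 bp from Hsromega on 3R and was listed at 0.143 FPKM in hsromega66 and 1.55 FPKM in control larvae, with a deposited p of 0.0117 and a q of 0.441. Over all 24 UDP-glycosyltransferase genes under either kind of symbol, 2 rose, none fell, and 18 had a ratio above 0, where 48.3% of all 11607 genes lay. The median log2 ratio of the 24 was only 0.13, so many of these differences were small. Their summed level was 408 FPKM in hsromega66 and 333 FPKM in control larvae.

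The authors' own classes gave another picture of the 63 transcripts. In the authors' deposited table, 61 transcripts of Gst and Ugt genes are classed as baseline. The main transcript of GstD10 is classed as downregulated and the less abundant transcript of Ugt36Bc (3.98 FPKM in hsromega66, 0.532 FPKM in control) as upregulated, although this Ugt36Bc transcript has a deposited q of 0.807. In the table the up- and downregulated classes hold exactly the transcripts whose deposited log2 ratio is 2 or more in size and whose unadjusted p is at most 0.05, and with the classes of transcripts listed at 0 in 1 genotype they cover 2.66% of all transcripts. GstD3, at a deposited log2 ratio of -1.96, and Ugt86Dj, at 1.96, share the smallest q of the table, 0.00546, and are classed as baseline.

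Of 5 listed genes of the supply and breakdown of the cosubstrate glutathione, 1 rose and 1 fell. Over all 12116 genes, 1.4% rose and 0.908% fell. Gclc, the catalytic subunit of glutamate-cysteine ligase, which makes the first step of glutathione synthesis, rose to 36.5 FPKM in hsromega66 larvae, against 14.6 FPKM in control, with a deposited q of 0.0177. Eip55E, a cystathionine gamma-lyase of the route to cysteine, fell to 91.2 FPKM in hsromega66 larvae, against 197 FPKM in control, with a deposited q of 0.00983. The modifier subunit Gclm stood at 38.7 FPKM in hsromega66 and 35.6 FPKM in control, Ggt-1, which breaks down glutathione, at 34.1 FPKM in hsromega66 and 18.2 FPKM in control (deposited q = 0.125), and Cbs at 6.91 FPKM in hsromega66 and 7.42 FPKM in control.

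The regulators and the partner enzymes gave no call. Of 5 listed CncC and xenobiotic regulators none passed the Cuffdiff q, and 0 passed an unadjusted p-value threshold of 0.05. In this list cnc itself had the largest ratio, at 95.4 FPKM in hsromega66 and 71.3 FPKM in control, and Keap1 stood at 7.77 FPKM in hsromega66 and 7.74 FPKM in control. These are RNA levels, and the activity of CncC was not measured. None of 16 antioxidant enzymes passed the Cuffdiff q, and 3 passed the unadjusted threshold. The peroxiredoxin gene Prx2540-2 (14.7 FPKM in hsromega66, 6.31 FPKM in control, deposited q of 0.183) had the largest ratio. Its tandem copy Prx2540-1 stood at 5.18 FPKM in hsromega66 and 2.44 FPKM in control, and reads may have been split between these similar genes. None of 5 efflux transporters passed the Cuffdiff q, and 1 passed the unadjusted threshold, the P-glycoprotein gene Mdr49 (27.6 FPKM in hsromega66, 13.7 FPKM in control, deposited q of 0.168). Of 5 genes of UDP-sugar supply none passed the Cuffdiff q, and 0 passed the unadjusted threshold. UGP, the enzyme that makes UDP-glucose, had the log2 ratio furthest from 0 in that list. It was listed lower in hsromega66 larvae, at 41.3 FPKM in hsromega66 and 65.7 FPKM in control. Of 3 sulfotransferases none passed the Cuffdiff q, and 1 passed the unadjusted threshold, St4 at 4.70 FPKM in hsromega66 and 7.93 FPKM in control. St3 had the largest ratio among them, at 2.21 FPKM in hsromega66 and 0.934 FPKM in control.

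Markers of the tissues that hold these enzymes did not all behave alike, and no marker was listed at 0 in either genotype. For scale, 1.4% of all 12116 genes rose and 0.908% fell. Of the 11607 genes with at least 1 FPKM, 48.3% had a ratio above 0. All 10 midgut markers had a ratio above 0, 6 of them rose, and they summed to 10247 FPKM in hsromega66 and 5626 FPKM in control larvae. Of 5 Malpighian tubule markers 4 had a ratio above 0 and NaPi-T rose (24.1 FPKM in hsromega66, 11.5 FPKM in control), with sums of 136 FPKM in hsromega66 and 87.0 FPKM in control. Of 5 listed fat body markers 4 had a ratio below 0, with a median log2 ratio of -0.11, and they summed to 32596 FPKM in hsromega66 and 35255 FPKM in control larvae, and none passed. All 5 haemocyte markers had a ratio below 0 and summed to 183 FPKM in hsromega66 and 295 FPKM in control, none of them past the threshold. Of 5 salivary gland markers 4 had a ratio below 0, and their median log2 ratio was -0.72, with no call. Their sums of 43414 FPKM in hsromega66 and 47640 FPKM in control were carried by Sgs7 (30486 FPKM in hsromega66, 29798 FPKM in control), while Sgs3 stood at 416 FPKM in hsromega66 and 863 FPKM in control, with a deposited q of 0.0783. Of 3 neuron markers 2 had a ratio above 0 and none passed, with sums of 46.0 FPKM in hsromega66 and 33.9 FPKM in control. Median log2 ratios of the lists not given above were 1.25 for midgut, 0.49 for Malpighian tubule and 0.13 for neuron markers. Those of haemocyte and muscle markers were -0.79 and -0.54. Median log2 ratios thus lay above 0 for midgut, Malpighian tubule and neuron markers and below 0 for the other marker lists. Only the midgut and Malpighian tubule lists held called genes. The part of tissue proportions in the values of the Gst, Ugt and glutathione genes was not tested.

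**Figure D4:**
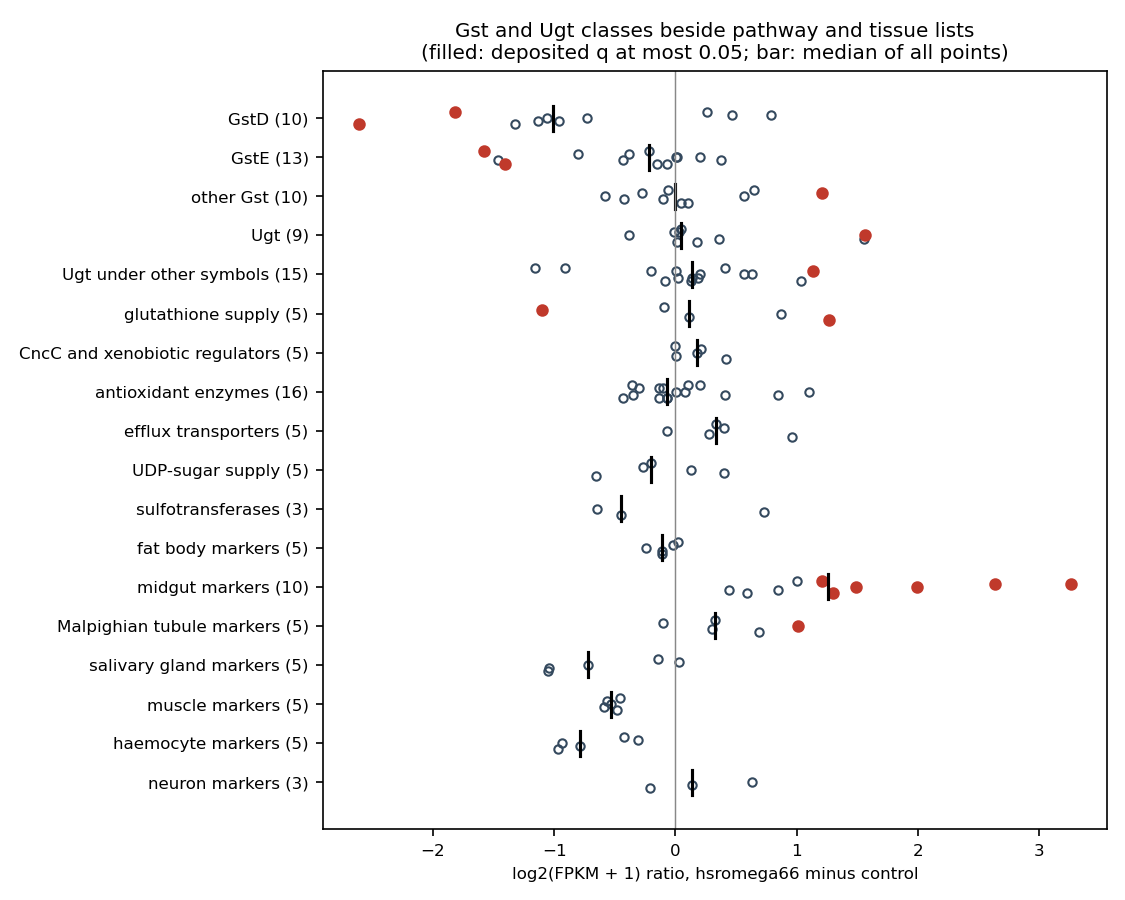
Each point is the log2(FPKM + 1) ratio (hsromega66 minus control) of 1 gene, filled where the deposited q is at most 0.05, with a bar at the median of the listed genes and their number in brackets. The GstD row is centred at -1.01 and the midgut marker row at 1.25, while the rows of the regulators and antioxidant enzymes lie around 0 with no filled point.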

How the data were processed

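Total RNA of whole larvae was made into libraries with a stranded total RNA kit with ribosomal RNA removal and sequenced as paired reads of 100 bp, per the labels' protocols. The tools named in the submitters' processing notes are TopHat, Bowtie, Cufflinks and, in version 2.1.1, Cuffdiff, and the build named there is dm6. Per the file headers, FPKM values are deposited once for each transcript in each genotype, pooled over the libraries. The headers call the columns CON and Treated, and Treated was read as hsromega66, the only group besides control. The deposited log2 fold changes matched those recomputed from FPKM, hsromega66 over control, to 5e-05. The deposited p-values and q-values are the authors', and Benjamini-Hochberg adjustment of the p-values of 21529 transcripts returned the q-values to 5e-07. The lowest p-value, 5e-05, is held by 197 transcripts. Each transcript had at least 0.669 FPKM in 1 genotype, so genes low in both genotypes were not analysed here. A further 13 annotated Gst and Ugt genes, GstD11 and GstE4 among them, were not analysed here.

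FPKM was summed per gene, log2(FPKM + 1) ratios were taken, and a gene was called at a deposited q of at most 0.05. The gene sums and calls were tested on simulated data. Medians used genes of at least 1 FPKM in 1 genotype. FPKM times length of single-exon transcripts was searched for the step of 1 read: at the best step 26.2% of 324 hsromega66 and 26.9% of 219 control values were whole numbers of reads to within 10% of a read, beside 20% for evenly spread values, so read counts could not be recovered and depth is unknown. Coordinates and current gene names are from the Ensembl 115 annotation of BDGP 6.54 (dm6 coordinates), in which 12037 of 12116 gene identifiers matched. No sequences were used here.

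Members and lists were chosen with earlier results of these data known. The text names each called gene, the 3 most abundant members of each class, its 2 highest and 2 lowest ratios, and the called or most extreme genes of each list, and the remaining members and the neighbours of the clusters were named after their values were seen. Lsp1gamma, brp, ss, dhd, St1, Gss1 and Gss2 were listed but not analysed here. Alternatives were another pseudocount, FPKM minimum, q threshold, minimum ratio, centring, the most abundant transcript and the class without its most abundant member. Python 3.11.15, numpy 2.4.6, pandas 2.3.3 and matplotlib 3.10.9 were used.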

Additional observations from a re-analysis of the deposited data

How the results depend on the processing

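A q of at most 0.01 left 2 rises and 3 falls, without GstE8. Adding the 15 genes under other symbols, an alternative chosen after seeing the data, gave 3 rises and 4 falls. The other alternatives left 2 rises and 4 falls. All 6 genes have at least 5 FPKM in 1 genotype and an absolute log2 ratio of at least 1, so those minimums could not change the counts. The GstD median of -1.01 was -1.29 with a pseudocount of 0.1 and -1.23 for genes of at least 5 FPKM, and the GstE median of -0.22 was -0.38 with a pseudocount of 0.1. The Ugt median of 0.05 was 0.35 for genes of at least 5 FPKM and 0.18 for the most abundant transcript alone. Without the most abundant member, the log2 ratio of summed FPKM was -1.71 against -0.88 for GstD, -0.78 against -0.40 for GstE, 0.15 against 0.03 for the other Gst genes and -0.27 against -0.39 for all 42. With alternatives chosen after seeing the data, a q of at most 0.01 left 1 of 2 calls in the glutathione supply list and 0 of 1 among the 15 genes under other symbols. For the 24 named members, centring moved none by more than 0.1, a pseudocount of 0.1 moved 6 (GstD3, GstD7, GstE8, GstE14, Ugt36Bc, Ugt86Dj) and the most abundant transcript 3 (GstD9, GstT3, Ugt36Bc). The sign changed for Ugt86Dd when centred and for GstE12 with the most abundant transcript, both with a log2 ratio close to 0 and no call. No paired analysis was possible because the values are pooled per genotype, and leaving out single libraries was not run for that reason. Depth is unknown, so the limit it sets on low genes such as GstE14 or CG6475 cannot be given.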
